A study of Mus musculus with 28 samples.

Results

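E10.5 pre-HSC II cells were compared with E9.5 pro-HSC/HPC cells of the mouse embryo, and the difference is described across all 15238 genes tested. The comparison rests on 6 of the 28 libraries of the series, 3 of pre-HSC II and 3 of pro-HSC/HPC, picked by their labels, and each library was an RNA sequencing library of 100 sorted cells. The pre-HSC II cells came from E10.5 tissue labelled AGM+VU, and the pro-HSC/HPC cells came from E9.5 tissue labelled PAS+VU, where HPC stands for hematopoietic progenitor cell and the tissue terms are left unexpanded in the labels. All embryos carried the transgene labelled 23GFP, while the sources used here give neither its driver, nor its use in the sort, nor the sort gates. Embryonic day, dissected tissue and population differed together between the groups and cannot be told apart. Beside them stand E10.5 pre-HSC I, of the same day and tissue label as pre-HSC II, and the hemogenic endothelium (HE) of E10.5 and of E9.5, each with 3 libraries and the same transgene label.

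Blood stem cells of the embryo arise from hemogenic endothelium, a part of the vessel wall in which cells lose their junctions, round up and bud into the vessel as clusters. The transcription factor Runx1 is required for this step. The cells that leave the wall are not yet stem cells, and they are thought to pass through pro-HSC, pre-HSC I and pre-HSC II stages, which are usually told apart by the surface proteins CD41 (gene Itga2b), CD43 (Spn) and CD45 (Ptprc), with CD45 appearing at the pre-HSC II stage.

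The 6 libraries held 17183716 to 26685560 counts, and 14804 to 16050 genes had at least 1 count. Levels are given as CPM, the counts scaled to a common library size after correction for library composition, and 3 counts corresponded to 0.111 to 0.144 CPM. Log2 differences are pre-HSC II minus pro-HSC/HPC with an SE. This SE was worked back from the test, as the size of the log2 difference over the square root of its F statistic. P-values are from edgeR's quasi-likelihood test with Benjamini-Hochberg adjustment over all genes, and a gene was called at an adjusted p under 0.05. Means are given with the SD over 3 libraries. A lower level in a pool of cells can come from fewer cells with the transcript or from less RNA in each cell, and these cannot be told apart here.

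Libraries of pro-HSC/HPC differed in hemoglobin. Hemoglobin genes took 0.000948%, 0.00113% and 0.00121% of the counts in pre-HSC II replicates 1, 2 and 3, against 0.00073%, 1.11% and 0.422% in pro-HSC/HPC replicates 1, 2 and 3. In pre-HSC I, replicate 3 held 0.172%, against 0.00145% and 0.00136% in replicates 1 and 2, and it was kept in the comparisons with pre-HSC I. Replicates 2 and 3 of pro-HSC/HPC are called the hemoglobin-rich libraries below. The total count of calls and the counts of some lists are therefore also given without them. In that fit the remaining pro-HSC/HPC library is assumed to vary like the libraries of other populations. Other lists are counted with all libraries only, and some of them had fewer members called in that fit.

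Of the 15238 genes, 1882 were called (12.4%). Expression was higher in pre-HSC II for 447 of them (2.93% of genes tested) and lower for 1435 (9.42%). At an unadjusted p under 0.05 there were 3634 genes. The 6 libraries did not overlap for 441 of the 447 higher and 1400 of the 1435 lower genes, while 32.0% of all genes tested showed no overlap. Without the hemoglobin-rich libraries 76 genes were higher (0.499%) and 893 lower (5.86%). Of the 447 higher genes 70 were still called there, and of the 1435 lower genes 889. The higher count depended on the fit, since 501 genes were higher and 955 lower when the same libraries were left out and only the compared libraries were fitted, an alternative chosen after seeing the data. When each of the 6 libraries was left out in turn, 170 of the higher and 938 of the lower genes were called in every run. The count of higher genes was 250 without pre-HSC II replicate 2, 253 without pro-HSC/HPC replicate 1 and 263 without pro-HSC/HPC replicate 3. Of the lower genes 75 had 0 counts in all pre-HSC II libraries, and of the higher genes 23 had 0 counts in all pro-HSC/HPC libraries.

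**Figure D1:**
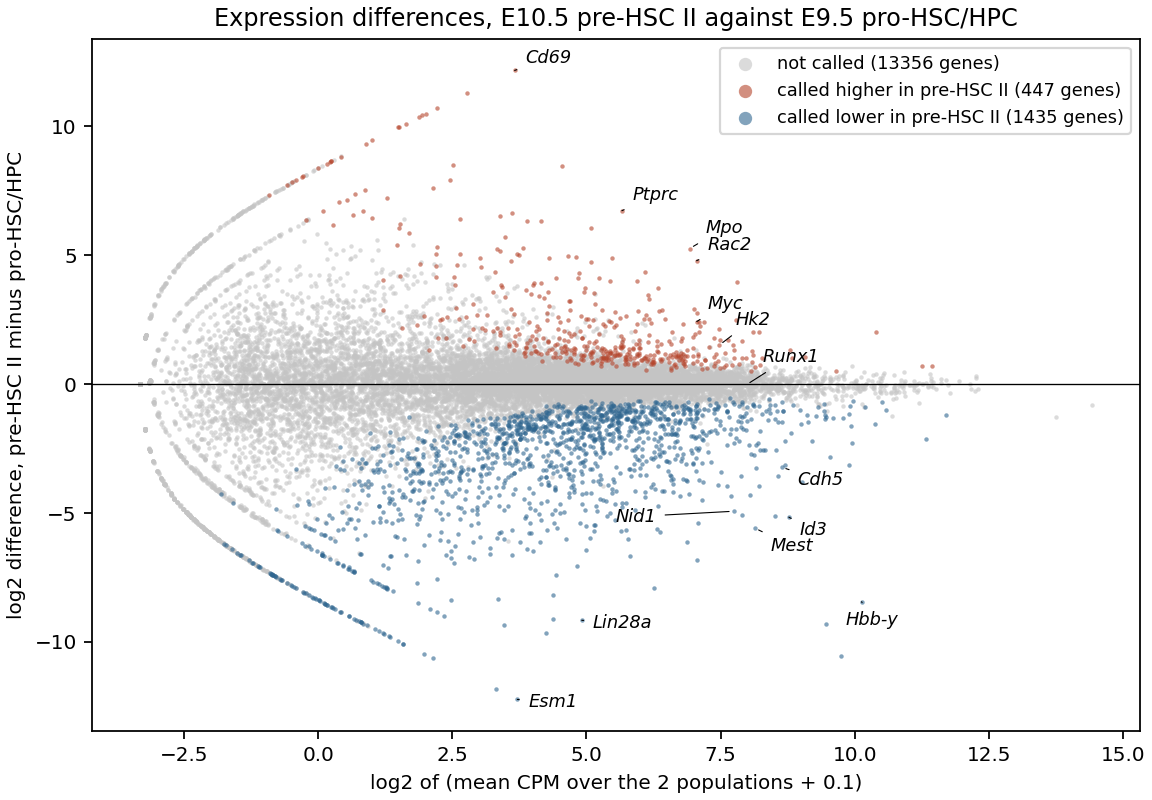
Log2 difference of pre-HSC II minus pro-HSC/HPC (vertical axis) against the log2 of the mean CPM over both populations plus 0.1 (horizontal axis), with 1 point per gene tested. The 1435 genes called lower outnumber the 447 called higher, and Runx1 lies on the zero line at a high level.

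Markers by which such populations are usually sorted were read first, as a check of the labels and not as a result. Ptprc had 64.3, 133 and 103 CPM in pre-HSC II replicates 1 to 3, against 0.749, 1.25 and 0.817 CPM in pro-HSC/HPC replicates 1 to 3, so that transcripts for CD45 were abundant in one population and low in the other. Spn had 52.7, 45.7 and 59.7 CPM in pre-HSC II, against 9.7, 6.0 and 13.6 CPM in pro-HSC/HPC, without overlap but not called (2.43 ± 1.02 on the log2 scale, adjusted p = 0.14). Itga2b had 24.1, 17.6 and 42.1 CPM in pre-HSC II, against 10.2, 11.1 and 26.0 CPM in pro-HSC/HPC, and these ranges overlapped. Kit, the receptor for stem cell factor, was called higher, with 231, 309 and 387 CPM in pre-HSC II, against 125, 121 and 124 CPM in pro-HSC/HPC (1.33 ± 0.36, adjusted p = 0.012), and the call was lost without pre-HSC II replicate 3 (adjusted p = 0.063). Cdh5, the cadherin of endothelial junctions, had 86.6, 60.8 and 84.2 CPM in pre-HSC II, against 739, 521 and 898 CPM in pro-HSC/HPC. Both populations thus held RNA of blood and of endothelial genes, in different proportions.

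Genes of leukocyte surface proteins and signalling formed the list with the largest share of rises. Of its 40 members, all of them tested, 23 were called higher, 1 lower, and 16 did not pass. Over all genes tested 2.93% were called higher and 9.42% lower. The list had a median log2 difference of 2.42 beside 0.00 over all genes. Rac2, a GTPase of blood cells that drives migration, had 305, 291 and 170.0 CPM in pre-HSC II, against 8.01, 13 and 6.72 CPM in pro-HSC/HPC (4.79 ± 0.40, adjusted p = 2e-09). Coro1a, an actin-binding protein of leukocytes, had 485, 458 and 321 CPM in pre-HSC II, against 18.4, 33.8 and 28.5 CPM in pro-HSC/HPC (3.97 ± 0.45, adjusted p = 2.3e-07). The lowest pre-HSC II library exceeded the highest pro-HSC/HPC library by several fold for both. Cd47, the surface signal that holds off phagocytes, averaged 230.0 ± 43.2 CPM in pre-HSC II and 48.1 ± 7.6 CPM in pro-HSC/HPC (2.26 ± 0.29, adjusted p = 2.3e-06). Ptprc, Spn and Kit are members too, and they remain a check of the labels here. Ptprc differed by 6.73 ± 0.87 (adjusted p = 3.3e-06). Il2rg, the shared gamma chain of several interleukin receptors, was the member called lower, with a mean of 38.1 CPM in pre-HSC II and 145 CPM in pro-HSC/HPC, and it is named because of its direction. Leaving out the hemoglobin-rich libraries left 11 members called higher and 1 lower, with a median of 2.86.

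The 12 largest rises by size included genes of immune cells and blood progenitors. Cd69 (chr6:129217343-129225387, mm9), an activation antigen of leukocytes, had 23.8, 26.8 and 24.7 CPM in pre-HSC II and 0 counts in all 3 pro-HSC/HPC libraries, which is at least 650.0-fold higher when 3 counts summed over the 3 libraries are taken as the floor (adjusted p = 0.00032). Tnip3 (chr6:65540392-65584034, mm9), an inhibitor of NF-kappaB signalling, had 20.3, 11.3 and 9.0 CPM in pre-HSC II and 0 counts in pro-HSC/HPC, at least 360.0-fold higher (adjusted p = 0.00017). Neither gene had a read in pro-HSC/HPC.

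Tespa1 (chr10:129759908-129799698, mm9), known from T cell receptor signalling in the thymus, had 46.2, 58.7 and 34.8 CPM in pre-HSC II, against 0.262, 0.0 and 0.111 CPM in pro-HSC/HPC (8.46 ± 1.01, adjusted p = 9e-06). Flt3 (chr5:148142317-148212065, mm9), a receptor tyrosine kinase of multipotent and lymphoid-primed progenitors, had 23.8, 45.3 and 35.3 CPM in pre-HSC II, against 0.487, 0.0 and 0.78 CPM in pro-HSC/HPC (6.34 ± 1.09, adjusted p = 0.0005). Coro2a, a coronin, had 40.6, 68.5 and 91.8 CPM in pre-HSC II, against 2.13, 0.0 and 0.817 CPM in pro-HSC/HPC (6.07 ± 1.05, adjusted p = 0.00012). These transcripts were plentiful in every pre-HSC II library and at most 2.13 CPM in any pro-HSC/HPC library. Ebi3, a subunit of interleukin-27 whose exons share bases with another gene model, averaged 24.1 ± 4.03 CPM in pre-HSC II and 0.235 ± 0.407 CPM in pro-HSC/HPC. Myo1g, a myosin of blood cells, averaged 29.2 ± 11.7 CPM in pre-HSC II and 0.361 ± 0.626 CPM in pro-HSC/HPC. Receptors for a cytokine and a neuropeptide stood beside them. Il21r was 284-fold higher (95% counting interval 96.8 to 1380.0), with 3 counts in all in pro-HSC/HPC, and Ramp1, a subunit of the receptor for calcitonin gene-related peptide, 442-fold higher (122 to 3660.0), with 2 counts in all. Rgs1, which dampens G protein signalling in lymphocytes, had 11.7, 22.9 and 2.11 CPM in pre-HSC II, against 0.0, 0.0834 and 0.334 CPM in pro-HSC/HPC (6.40 ± 1.72, adjusted p = 0.016). Its call was lost without pre-HSC II replicate 2 (adjusted p = 0.1), without pro-HSC/HPC replicate 1 (0.064) and without pro-HSC/HPC replicate 2 (0.065). Bex6 completed the 12 largest rises, with 20.4 ± 4.75 CPM in pre-HSC II and 0.222 ± 0.385 CPM in pro-HSC/HPC.

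**Figure D2:**
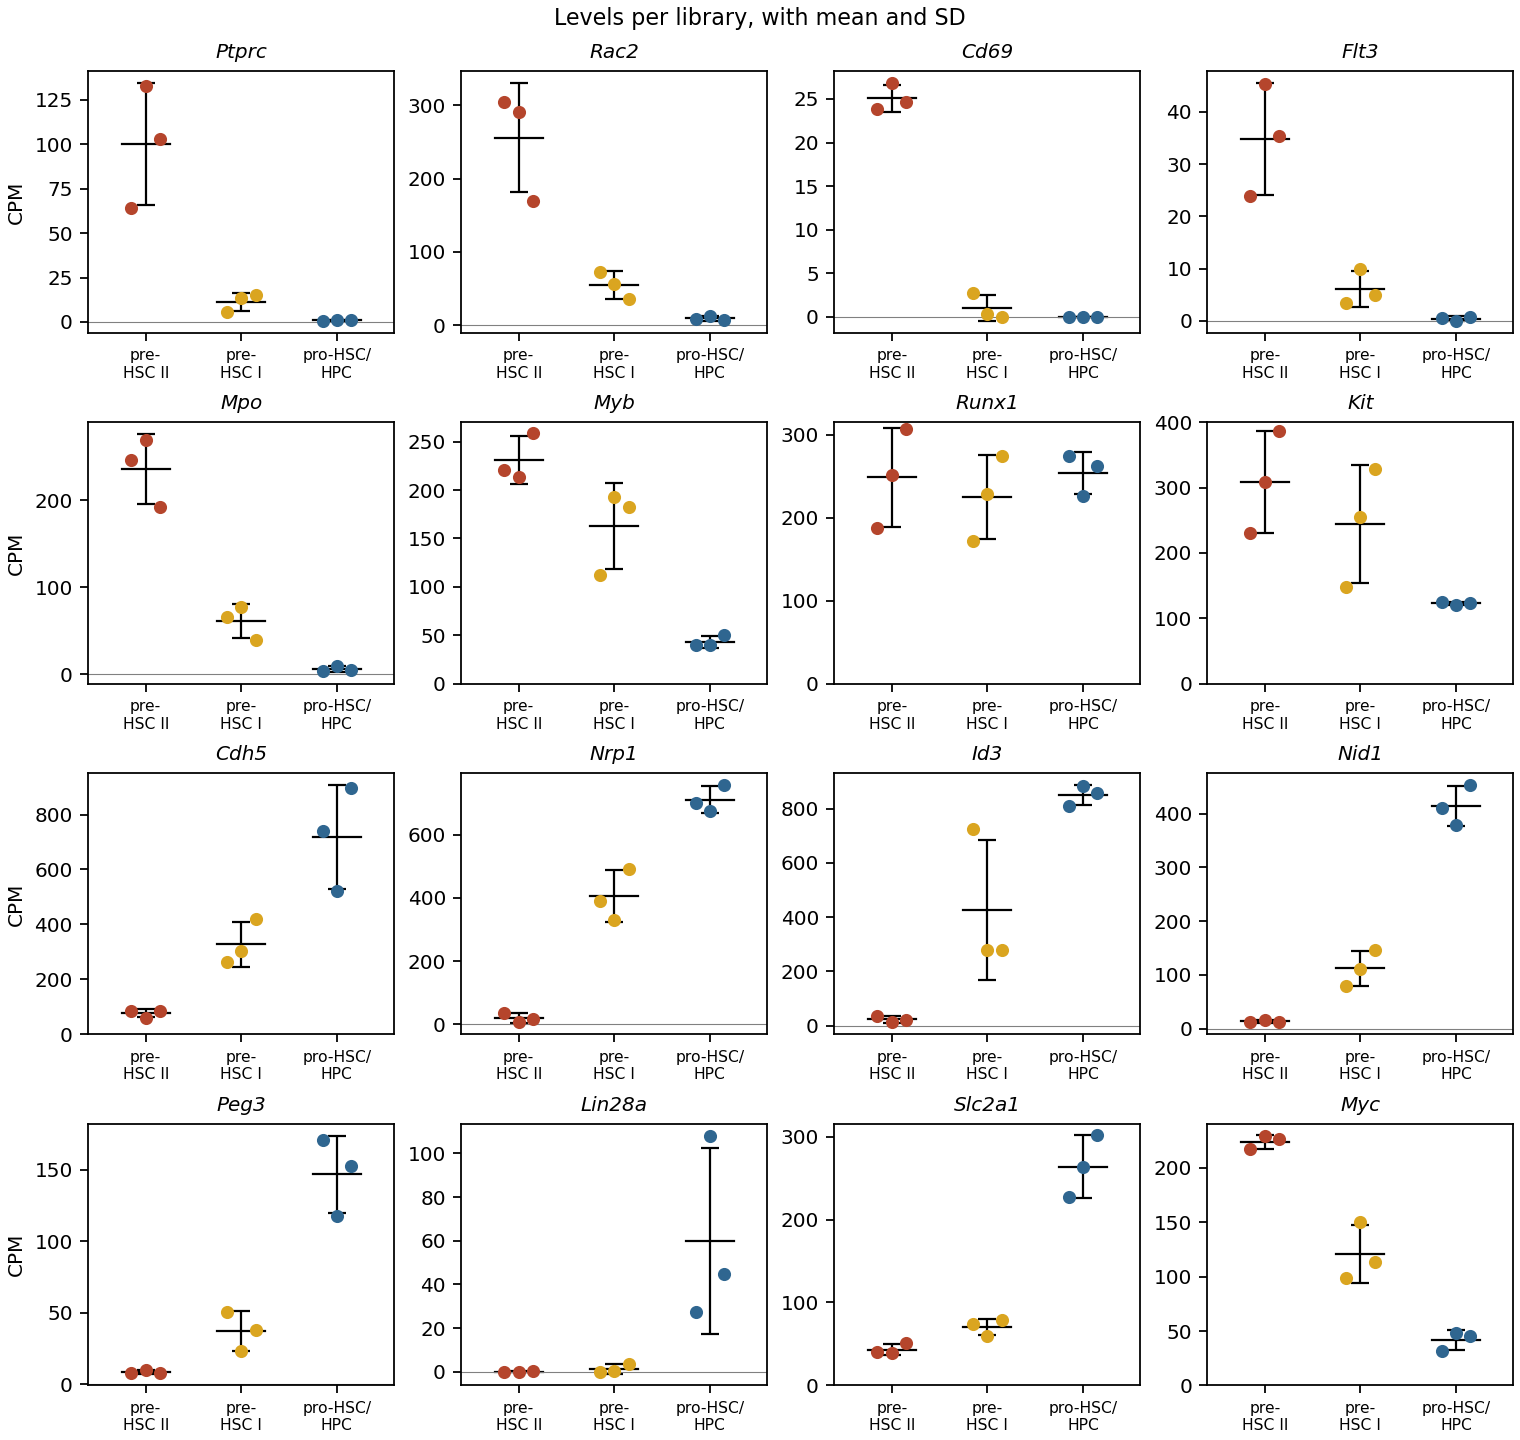
CPM of 16 genes in each library (points), with the mean (horizontal bar) and SD (error bar) of pre-HSC II, pre-HSC I and pro-HSC/HPC, 3 libraries each. Blood genes such as Ptprc, Rac2 and Mpo are high in pre-HSC II, vessel and matrix genes such as Cdh5, Nrp1 and Nid1 are high in pro-HSC/HPC, Runx1 overlaps in all 3 populations, and pre-HSC I often lies between.

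Of 26 transcription factors of blood formation tested, 3 were called higher, beside 2.93% of all genes, and 0 lower, with a median of 0.14. At an unadjusted p under 0.05 in edgeR 9 were higher and 2 lower. DESeq2 called 1 higher and 0 lower, and limma voom called 11 higher and 4 lower. Runx1 had 188, 252 and 307 CPM in pre-HSC II, against 274, 226 and 263 CPM in pro-HSC/HPC, which differed by less than the spread between libraries (-0.03 ± 0.34, adjusted p = 0.99). Tal1, a master regulator of blood development, averaged 33.1 ± 9.62 CPM in pre-HSC II and 47.2 ± 15.8 CPM in pro-HSC/HPC (-0.51 ± 0.30, adjusted p = 0.33). Gata2, required by stem cells, averaged 122 ± 30.6 CPM in pre-HSC II and 173 ± 28.2 CPM in pro-HSC/HPC (-0.51 ± 0.21, adjusted p = 0.12), and was called lower without pre-HSC II replicate 1 (adjusted p = 0.033). Gfi1 and Gfi1b are related repressors that silence endothelial genes during the transition. Gfi1 had 14.1, 22.9 and 23.6 CPM in pre-HSC II, against 44.9, 27.0 and 47.1 CPM in pro-HSC/HPC (adjusted p = 0.47). Gfi1b had 123, 82.2 and 68.0 CPM in pre-HSC II, against 6.89, 36.0 and 23.7 CPM in pro-HSC/HPC (adjusted p = 0.14). Neither pair of groups overlapped, in opposite directions, and neither passed.

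The 3 factors called higher act in definitive and lymphoid blood. Myb, required for definitive but not primitive blood, had 221, 213 and 259 CPM in pre-HSC II, against 39.5, 39.4 and 50.1 CPM in pro-HSC/HPC (2.43 ± 0.67, adjusted p = 0.015). Ikzf1, a zinc finger factor of lymphoid priming, had 133, 154 and 163 CPM in pre-HSC II, against 7.42, 9.46 and 16.5 CPM in pro-HSC/HPC (3.75 ± 1.04, adjusted p = 0.015). Runx3, a relative of Runx1, had 2.91, 6.75 and 2.87 CPM in pre-HSC II, against 0.3, 0.0417 and 0.409 CPM in pro-HSC/HPC (4.03 ± 1.31, adjusted p = 0.042). In all 3 every pre-HSC II library lay above every pro-HSC/HPC library. The call of Myb was lost without pro-HSC/HPC replicate 1 (adjusted p = 0.066) or 2 (0.056), that of Ikzf1 without the same libraries (0.078 and 0.06), and that of Runx3 without any of the 6 (0.059 to 0.16). Spi1, the myeloid factor PU.1, averaged 12 ± 0.485 CPM in pre-HSC II and 5.28 ± 1.62 CPM in pro-HSC/HPC (adjusted p = 0.59), and Cebpa, a factor of granulocytes, averaged 2.07 ± 1.77 CPM in pre-HSC II and 0.0495 ± 0.0858 CPM in pro-HSC/HPC (adjusted p = 0.16).

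Granulocyte and macrophage genes were measured as markers of more mature cells. Of 22 listed, 16 were tested, and 5 were called higher, beside 2.93% of all genes. The others did not pass, and the median was 1.90. Their summed level was 594, 592 and 476 CPM in pre-HSC II, against 60.1, 98.6 and 66.3 CPM in pro-HSC/HPC. Mpo, the peroxidase of granules (chromosome 11), had 247, 270.0 and 192 CPM in pre-HSC II, against 3.48, 9.75 and 5.31 CPM in pro-HSC/HPC (5.26 ± 0.95, adjusted p = 0.00022). Prtn3, a granule protease, had 159, 129 and 99.9 CPM in pre-HSC II, against 2.77, 7.92 and 8.17 CPM in pro-HSC/HPC (4.36 ± 0.53, adjusted p = 1.1e-06). Most of the summed level in pre-HSC II came from these granule genes. Elane, the elastase of the same granules, stayed at a mean of 0.464 CPM in pre-HSC II and 0.21 CPM in pro-HSC/HPC. Of the macrophage markers, Emr1 and C1qa had 0 counts in all 6 libraries. Itgam, the CD11b chain, averaged 19.5 ± 4.29 CPM in pre-HSC II and 0.511 ± 0.716 CPM in pro-HSC/HPC (5.24 ± 1.22, adjusted p = 0.0035), and Csf3r, the receptor for the granulocyte growth factor, averaged 35.9 ± 2.43 CPM in pre-HSC II and 8.08 ± 1.42 CPM in pro-HSC/HPC (2.15 ± 0.39, adjusted p = 0.00025). Csf1r, the macrophage growth factor receptor, averaged 8.54 ± 5.10 CPM in pre-HSC II and 0.471 ± 0.174 CPM in pro-HSC/HPC (adjusted p = 0.044), a call lost in each run without pre-HSC II replicate 2 or 3 or any pro-HSC/HPC library (adjusted p of 0.092 to 0.15). The part of mature cells in the leukocyte and granule genes was not tested.

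Promoters are shown for Tnip3, with 0 counts in pro-HSC/HPC, and for the granule genes Mpo and Prtn3, since each holds the letters GAGGAAGT, a form of the site bound by PU.1, on one strand or the other. Mpo and Prtn3 were picked for printing after their letters had been read. The sequences are the 250 bases before the gene start, from RefSeq on GRCm38.p6, a later build than the mm9 of the counts, with the motif in capitals.
Tnip3, chr6:65590148-65590397, plus strand, with ACTTCCTC, the same motif on the other strand, beginning 166 bases before the start: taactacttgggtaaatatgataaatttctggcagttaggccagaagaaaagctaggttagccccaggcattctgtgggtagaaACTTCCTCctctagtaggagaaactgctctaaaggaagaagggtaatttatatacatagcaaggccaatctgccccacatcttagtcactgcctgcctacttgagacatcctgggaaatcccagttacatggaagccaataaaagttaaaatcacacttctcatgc
Mpo, chr11:87793534-87793783, plus strand, beginning 224 bases before the start: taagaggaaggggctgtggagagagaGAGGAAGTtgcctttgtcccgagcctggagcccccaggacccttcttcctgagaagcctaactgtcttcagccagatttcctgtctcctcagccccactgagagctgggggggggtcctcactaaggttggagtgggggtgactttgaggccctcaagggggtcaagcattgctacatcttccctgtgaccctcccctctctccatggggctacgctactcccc
Prtn3, chr10:79879417-79879666, plus strand, beginning 95 bases before the start: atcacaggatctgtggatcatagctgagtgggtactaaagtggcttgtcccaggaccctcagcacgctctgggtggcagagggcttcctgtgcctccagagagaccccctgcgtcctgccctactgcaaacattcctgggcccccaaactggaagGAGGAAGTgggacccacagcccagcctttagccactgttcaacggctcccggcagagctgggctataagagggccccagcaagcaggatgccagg
Counted by gene with a promoter, the motif stood on either strand for 4.65% of genes called higher (16 of 344) and 2.6% of those called lower (27 of 1037). It stood for 2.9% of all genes tested (328 of 11308) and 2.79% of all genes with a promoter. Counted by promoter, it stood in 2.44% of all promoters of this length. Of the 24 genes with the largest rises and falls, 18 had a promoter in the table, and Tnip3 was the one that held this motif. The GATA factor form AGATAA stood in promoters of 2 of these 18 genes. A Runx form, TGTGGTT, was found for 1 of them. The E-box CACGTG was likewise found for 1. Of all genes tested with a promoter, 7.63%, 3.91% and 9.52% held the GATA, Runx and E-box forms. A match describes letters and not binding.

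Genes known to act in stem cells split in both directions. Of 24 tested, 6 were called higher and 7 lower, beside 2.93% of all genes higher and 9.42% lower, with a median of -0.08. The members called higher included Meis1, Msi2, Angpt1, Gpr56 and Cd27. Mecom, a factor needed for stem cell maintenance, had 43.8, 56.6 and 62.3 CPM in pre-HSC II, against 256, 171 and 228 CPM in pro-HSC/HPC (-2.01 ± 0.38, adjusted p = 0.00045). Tek, the angiopoietin receptor shared by endothelium and stem cells, averaged 62.7 ± 15.1 CPM in pre-HSC II and 223 ± 19.8 CPM in pro-HSC/HPC (-1.83 ± 0.23, adjusted p = 1.4e-06). Several of the members that fell, Mecom, Tek, Esam and Vwf among them, are also expressed by endothelium. Esam, a junction protein, averaged 64.7 ± 9.62 CPM in pre-HSC II and 186 ± 42.5 CPM in pro-HSC/HPC (-1.52 ± 0.22, adjusted p = 1.2e-05). Hlf, a factor of stem and progenitor cells, averaged 113 ± 23.1 CPM in pre-HSC II and 23.2 ± 6.40 CPM in pro-HSC/HPC without overlap, yet did not pass (2.28 ± 0.79, adjusted p = 0.06). Procr, the protein C receptor of early stem cells, averaged 28.9 ± 0.689 CPM in pre-HSC II and 66.0 ± 3.92 CPM in pro-HSC/HPC (-1.19 ± 0.46, adjusted p = 0.099), again without overlap and without a call. Without the hemoglobin-rich libraries 0 members were called higher in edgeR and 6 lower.

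Vessel genes fell in all 3 of their lists. The lists share members, Sox17 between the endothelial and arterial ones and Emcn between the endothelial and venous ones. Of 25 endothelial identity genes 23 were called lower, beside 9.42% of all genes, with a median of -2.70. Cd93 and Erg did not pass. Of 20 arterial genes 19 were called lower, with a median of -4.19, and of 10 venous and lymphatic genes 8, with a median of -3.30. Nrp1, the semaphorin and VEGF co-receptor of arteries, had 36.5, 8.17 and 16.5 CPM in pre-HSC II, against 699, 674 and 757 CPM in pro-HSC/HPC (-5.12 ± 0.42, adjusted p = 1.6e-09). Gja4, a connexin of arterial endothelium, had 26.4, 8.83 and 6.18 CPM in pre-HSC II, against 495, 515 and 383 CPM in pro-HSC/HPC (-5.07 ± 0.42, adjusted p = 1.5e-09). Gja5, its arterial partner, had 5.93, 0.529 and 3.11 CPM in pre-HSC II, against 150.0, 102 and 217 CPM in pro-HSC/HPC (-5.61 ± 0.65, adjusted p = 3.6e-07). Pre-HSC II replicate 1 was the highest of its population for all 3 genes and still lay far below the lowest pro-HSC/HPC library.

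Sox17, an arterial and hemogenic endothelial transcription factor, had 0.842, 0.163 and 0.431 CPM in pre-HSC II, against 32.7, 21.2 and 49.1 CPM in pro-HSC/HPC (-6.14 ± 0.57, adjusted p = 8.5e-09). Unc5b, a netrin receptor of arterial tip cells, averaged 2.07 ± 1.05 CPM in pre-HSC II and 104 ± 31.6 CPM in pro-HSC/HPC (-5.65 ± 0.50, adjusted p = 4.9e-09). Hey2 (chr10:30552165-30562589, mm9), a Notch target of arteries, had 0.536, 0.0 and 0.718 CPM in pre-HSC II, against 52.4, 43.7 and 72.2 CPM in pro-HSC/HPC (-7.07 ± 0.90, adjusted p = 1.6e-06). Among general endothelial genes, Cdh5, read above as a check of the labels, differed by -3.22 ± 0.31 (adjusted p = 1.9e-08). Pecam1, which encodes CD31, averaged 64.1 ± 25.4 CPM in pre-HSC II and 329 ± 37.6 CPM in pro-HSC/HPC (-2.36 ± 0.34, adjusted p = 8.7e-06). Ets1, a factor shared by endothelium and lymphocytes, averaged 35.6 ± 2.16 CPM in pre-HSC II and 210.0 ± 9.27 CPM in pro-HSC/HPC (-2.56 ± 0.22, adjusted p = 3.2e-09). Plvap, the diaphragm protein of fenestrated vessels, averaged 10.2 ± 4.14 CPM in pre-HSC II and 205 ± 53.8 CPM in pro-HSC/HPC (-4.34 ± 0.38, adjusted p = 3.3e-09). Levels left in pre-HSC II thus ranged from under 1 CPM in every library for Sox17 and Hey2 to means of 64.1 CPM for Pecam1 and 77.2 CPM for Cdh5. On the venous and lymphatic side, Flt4, the receptor for VEGF-C, averaged 5.59 ± 3.15 CPM in pre-HSC II and 71.7 ± 12.8 CPM in pro-HSC/HPC (-3.68 ± 0.31, adjusted p = 1.7e-09), and Emcn, a sialomucin of veins and capillaries, averaged 37.0 ± 13 CPM in pre-HSC II and 433 ± 130.0 CPM in pro-HSC/HPC (-3.55 ± 0.46, adjusted p = 2.3e-06). Without the hemoglobin-rich libraries 19 endothelial, 19 arterial and 6 venous and lymphatic genes were still lower.

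Signalling by blood flow and by bone morphogenetic proteins (BMPs) acts on this endothelium. Of 15 flow response genes tested 10 were called lower, beside 9.42% of all genes, with a median of -2.05. Of 11 BMP and Id genes 9 were called lower, with a median of -2.67, and both lists share Id1, Id3, Smad6 and Smad7. Id3, an inhibitor of helix-loop-helix factors, had 37.6, 14.4 and 19.4 CPM in pre-HSC II, against 809, 883 and 858 CPM in pro-HSC/HPC (-5.16 ± 0.38, adjusted p = 3.6e-10). Id2, a related inhibitor, averaged 27.1 ± 11.7 CPM in pre-HSC II and 180.0 ± 24.5 CPM in pro-HSC/HPC (-2.73 ± 0.41, adjusted p = 1.8e-05). Both were lower in each pre-HSC II library than in any pro-HSC/HPC library. Acvrl1, the endothelial receptor for BMP9, averaged 2.36 ± 0.760 CPM in pre-HSC II and 48.6 ± 14.3 CPM in pro-HSC/HPC (-4.36 ± 0.42, adjusted p = 1.5e-08), and Tmem100, one of its targets, averaged 2.37 ± 1.29 CPM in pre-HSC II and 265 ± 19.2 CPM in pro-HSC/HPC (-6.81 ± 0.71, adjusted p = 5.8e-08). The ligand gene Bmp4, whose exons share bases with another gene model, averaged 0.312 ± 0.149 CPM in pre-HSC II and 13.9 ± 1.90 CPM in pro-HSC/HPC. Nos3, which makes nitric oxide in vessels and shares exon bases with Atg9b, averaged 1.23 ± 0.853 CPM in pre-HSC II and 39.8 ± 7.42 CPM in pro-HSC/HPC (-5.03 ± 0.49, adjusted p = 2.2e-08). Edn1, which encodes the vessel-constricting peptide endothelin, averaged 1.11 ± 1.42 CPM in pre-HSC II and 111 ± 7.65 CPM in pro-HSC/HPC (-6.68 ± 0.81, adjusted p = 6.6e-07).

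The 12 largest falls by size included genes of vessels, of Wnt and retinoid signalling and of the Kit ligand, beside the RNA regulator Lin28a and metabolic enzymes. Esm1 (chr13:113999867-114008312, mm9), a proteoglycan secreted by endothelial tip cells, had 0 counts in pre-HSC II, against 16.3, 42.9 and 18.9 CPM in pro-HSC/HPC, at least 607-fold lower (adjusted p = 1.1e-05). Plat (chr8:23868216-23893320, mm9), the tissue plasminogen activator, had 0 counts in pre-HSC II, against 21.2, 18.6 and 19.6 CPM in pro-HSC/HPC, at least 474-fold lower (adjusted p = 2.1e-09). Both genes were present in each pro-HSC/HPC library and without a read in any pre-HSC II library. Prss23, a secreted protease, had 3 counts in pre-HSC II and 37.7 ± 13.6 CPM in pro-HSC/HPC, 902-fold lower (95% counting interval 309 to 4380.0). Foxc2, a forkhead factor of arteries and lymphatics, had 2 counts in pre-HSC II and 21.9 ± 12 CPM in pro-HSC/HPC, 801-fold lower (221 to 6620.0). Rimklb, a glutamate ligase, had 2 counts in pre-HSC II and 10.9 ± 4.23 CPM in pro-HSC/HPC, 394-fold lower (109 to 3260.0). Genes of embryonic signals followed. Cyp26a1 (chr19:37772298-37776026, mm9), which breaks down retinoic acid, had 0.191, 0.0 and 0.0 CPM in pre-HSC II, against 35.1, 40.3 and 48.3 CPM in pro-HSC/HPC (-9.11 ± 1.00, adjusted p = 1.3e-07). Lef1, the nuclear effector of Wnt signalling, averaged 0.0614 ± 0.0741 CPM in pre-HSC II and 20.2 ± 1.58 CPM in pro-HSC/HPC (-8.35 ± 0.77, adjusted p = 8.4e-09), and Sost, a secreted Wnt antagonist, averaged 0.136 ± 0.0818 CPM in pre-HSC II and 41.1 ± 14.0 CPM in pro-HSC/HPC (-8.16 ± 0.80, adjusted p = 2.4e-08).

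Kitl (chr10:99478458-99563046, mm9), the ligand of Kit, had 0.459, 0.0813 and 0.192 CPM in pre-HSC II, against 52.7, 47.8 and 27.6 CPM in pro-HSC/HPC (-7.39 ± 0.61, adjusted p = 1.7e-09). Receptor and ligand thus differed in opposite directions, with Kit higher and Kitl lower in pre-HSC II. Kit was among the markers read as a check of the labels. Fmo1, a flavin monooxygenase, had 0.689, 1.1 and 0.0479 CPM in pre-HSC II, against 162, 166 and 131 CPM in pro-HSC/HPC (-7.92 ± 0.76, adjusted p = 1.9e-08), the highest level among the 12 largest falls. In all, 42 lower genes were under 1 CPM in every pre-HSC II library while averaging 10 CPM or more in pro-HSC/HPC, and 14 higher genes showed the converse.

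**Figure D3:**
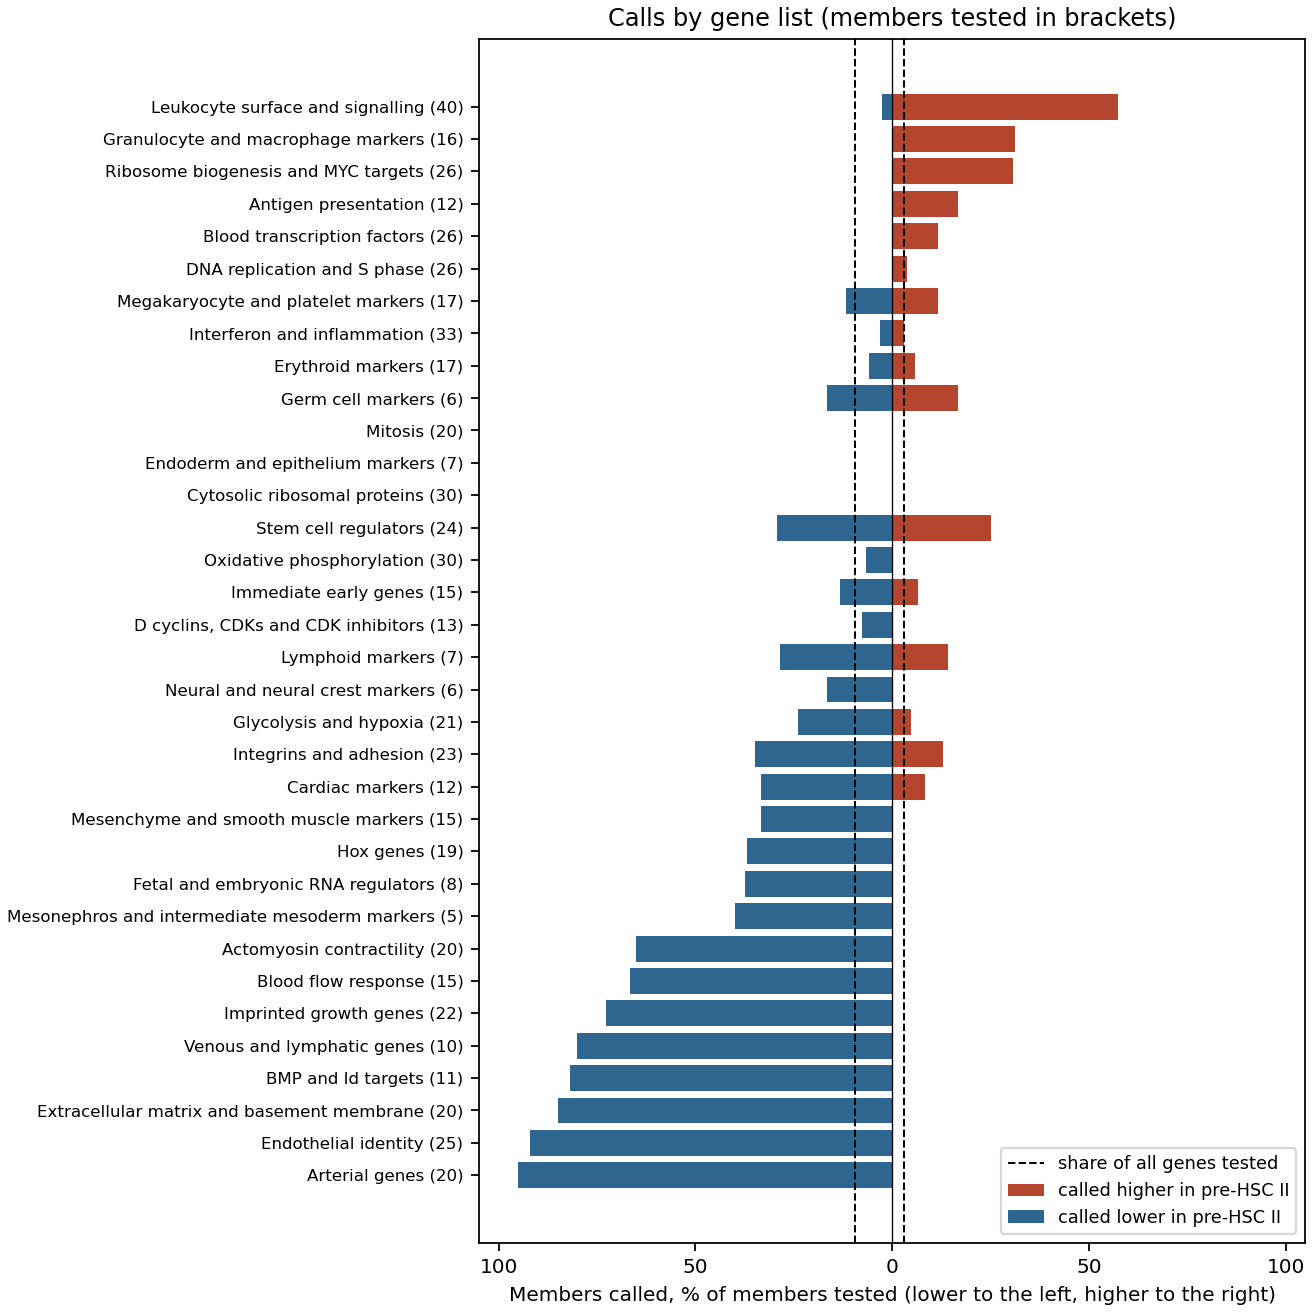
Share of the tested members of each gene list called higher (right) or lower (left) in pre-HSC II, in percent, for the lists with at least 5 members tested, with that number in brackets. Dashed lines mark the shares over all genes tested, 2.93% higher and 9.42% lower, and the arterial, endothelial and matrix lists reach furthest to the left.

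Matrix and contractile genes were lower in pre-HSC II. Of 20 genes of extracellular matrix and basement membrane 17 were called lower, beside 9.42% of all genes, with a median of -3.42. Of 20 actomyosin genes 13 were called lower, with a median of -1.22. Nid1, a linker protein of basement membranes, had 11.9, 16.1 and 12.7 CPM in pre-HSC II, against 410.0, 379 and 453 CPM in pro-HSC/HPC (-4.93 ± 0.29, adjusted p = 1.7e-11). Sparc, a matrix-binding glycoprotein, had 108, 56.6 and 41.2 CPM in pre-HSC II, against 991, 1020.0 and 880.0 CPM in pro-HSC/HPC (-3.81 ± 0.29, adjusted p = 3.9e-10). The libraries of each population agreed closely for Nid1, with an SD of 2.23 CPM in pre-HSC II and 37.0 CPM in pro-HSC/HPC. Col4a2, a collagen of basement membranes, averaged 31.7 ± 3.86 CPM in pre-HSC II and 331 ± 63.7 CPM in pro-HSC/HPC (-3.39 ± 0.30, adjusted p = 3.8e-09). Of the contractile genes, Cald1, which binds actin and myosin, had 10.6, 13.2 and 12 CPM in pre-HSC II, against 247, 195 and 247 CPM in pro-HSC/HPC (-4.27 ± 0.26, adjusted p = 2e-11). The tropomyosin gene Tpm1 averaged 87.8 ± 3.73 CPM in pre-HSC II and 516 ± 90.1 CPM in pro-HSC/HPC (-2.56 ± 0.22, adjusted p = 2.7e-09).

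Integrins, which anchor cells to matrix or to other cells, moved in both directions, with 3 of 23 genes of integrins and adhesion called higher and 8 lower. Over all genes tested the shares were 2.93% higher and 9.42% lower. Itga1, a collagen receptor, had 1.8, 0.0813 and 0.239 CPM in pre-HSC II, against 64.4, 51.1 and 72.8 CPM in pro-HSC/HPC (-6.43 ± 0.65, adjusted p = 3.8e-08). Itga5, the fibronectin receptor chain, averaged 28.1 ± 6.53 CPM in pre-HSC II and 124 ± 24.1 CPM in pro-HSC/HPC (-2.14 ± 0.33, adjusted p = 2.6e-05). The members called higher were Itgam, Itga4 and Selplg, which serve adhesion of blood cells. Itga4, a chain that binds endothelial VCAM1, had a mean of 205 CPM in pre-HSC II and 53.8 CPM in pro-HSC/HPC.

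Markers of mesenchyme and smooth muscle were read beside the matrix and contractile genes, with which they share Col1a1, Col1a2, Col3a1 and Acta2. Their summed level was 49.7, 62.5 and 58.3 CPM in pre-HSC II, against 448, 600.0 and 446 CPM in pro-HSC/HPC. Of 15 members 5 were called lower, beside 9.42% of all genes. Tagln, a smooth muscle protein whose exons share bases with Pcsk7, averaged 3.35 ± 1.79 CPM in pre-HSC II and 232 ± 40.0 CPM in pro-HSC/HPC (-6.11 ± 0.89, adjusted p = 1.3e-05), and Acta2, smooth muscle actin, averaged 27.4 ± 3.38 CPM in pre-HSC II and 225 ± 58.4 CPM in pro-HSC/HPC (-3.04 ± 0.95, adjusted p = 0.034). Leaving out any single library other than pro-HSC/HPC replicate 3 ended the call of Acta2 (adjusted p of 0.056 to 0.11). Of the mesenchymal transcription factors, Prrx1 was called lower, with a mean of 0.71 CPM in pre-HSC II and 12.5 CPM in pro-HSC/HPC, and so was Twist1, with 0.771 CPM in pre-HSC II and 5.53 CPM in pro-HSC/HPC. The call of Twist1 was lost without pre-HSC II replicate 1 (adjusted p = 0.074) or 2 (0.1) or pro-HSC/HPC replicate 3 (0.1). Col3a1, a fibrillar collagen, was called lower as well, with 0.0431 CPM in pre-HSC II and 2.35 CPM in pro-HSC/HPC. Of the 5 members called lower, 2 were called whichever single library was left out, and 2 without the hemoglobin-rich libraries. Other members did not pass. Col1a1 averaged 0.0574 CPM in pre-HSC II and 0.025 CPM in pro-HSC/HPC. Pdgfra averaged 0.898 CPM in pre-HSC II and 3.0 CPM in pro-HSC/HPC, and Dcn averaged 0.0271 CPM in pre-HSC II and 0.399 CPM in pro-HSC/HPC. Of 12 cardiac markers tested, 4 were called lower and Mef2c, which blood progenitors also express, higher. Tnnt2, a troponin of heart muscle, had 0 counts in pre-HSC II, against 10.4, 4.13 and 2.9 CPM in pro-HSC/HPC, at least 140.0-fold lower (adjusted p = 3.8e-05), while Nkx2-5 had 0 counts in all 6 libraries. The part of such cells in the matrix and contractile genes was not tested.

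Imprinted growth genes, which act on fetal size and are expressed from 1 parental copy, were lower for 16 of 22 tested. This stands beside 9.42% of all genes. Their median was -2.43, and 6 did not pass. Peg3, a zinc finger factor whose exons share bases with its antisense RNA, had 8.3, 9.88 and 7.85 CPM in pre-HSC II, against 171, 118 and 153 CPM in pro-HSC/HPC (-4.08 ± 0.34, adjusted p = 1.7e-09). Mest, a hydrolase-like protein whose exons share bases with Copg2, had 28.4, 4.35 and 1.48 CPM in pre-HSC II, against 593, 540.0 and 518 CPM in pro-HSC/HPC (-5.58 ± 0.62, adjusted p = 1.8e-07). Cdkn1c, the imprinted cell cycle inhibitor p57, had 88.1, 55.6 and 70.6 CPM in pre-HSC II, against 498, 405 and 549 CPM in pro-HSC/HPC (-2.76 ± 0.31, adjusted p = 1.8e-07). The populations were far apart for all 3 genes, with the widest scatter relative to the mean for Mest in pre-HSC II. Peg10, a gene derived from a retrotransposon, averaged 11.2 ± 1.42 CPM in pre-HSC II and 127 ± 37.2 CPM in pro-HSC/HPC (-3.51 ± 0.39, adjusted p = 1.7e-07). With the hemoglobin-rich libraries left out, 13 members were called lower, with a median of -2.30.

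Of 8 RNA regulators of fetal cells tested, 3 were called lower, beside 9.42% of all genes. Lin28a (chr4:133559245-133574731, mm9), which blocks the maturation of let-7 microRNAs, had 0.0, 0.0 and 0.335 CPM in pre-HSC II, against 27.2, 108 and 44.7 CPM in pro-HSC/HPC (-9.16 ± 1.35, adjusted p = 1.5e-05). Its relative Lin28b had 60.5, 90.7 and 86.6 CPM in pre-HSC II, against 68.2, 69.4 and 53.8 CPM in pro-HSC/HPC (0.31 ± 0.29, adjusted p = 0.59). Of these related genes the first was nearly absent from pre-HSC II and the other overlapped between the populations. Trim71, a let-7 target, averaged 85.9 ± 12.2 CPM in pre-HSC II and 180.0 ± 31.8 CPM in pro-HSC/HPC (-1.07 ± 0.23, adjusted p = 0.0018). Igf2bp3, an mRNA-binding protein of fetal tissue, averaged 119 ± 9.98 CPM in pre-HSC II and 122 ± 8.16 CPM in pro-HSC/HPC (-0.05 ± 0.23, adjusted p = 0.95). Its relative Igf2bp1, which overlaps a microRNA gene, was called lower (-0.59 ± 0.20, adjusted p = 0.048), a call lost without pre-HSC II replicate 1 or 2 or pro-HSC/HPC replicate 1 or 3 (adjusted p of 0.083 to 0.24). Hox genes, which give cells their position along the body, were lower for 7 of 19, among them Hoxb5, Hoxb7 and Hoxb9. Their median was -1.87, or -1.58 with genes of 0 counts set at their bound. Hoxb5 averaged 4.77 ± 2.64 CPM in pre-HSC II and 18.6 ± 8.83 CPM in pro-HSC/HPC (-1.96 ± 0.41, adjusted p = 0.0011).

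Some growth genes rose. Of 26 genes of ribosome biogenesis and MYC targets 8 were called higher, beside 2.93% of all genes, and the others did not pass. Their median was 0.68 beside 0.00 over all genes. Myc itself, the growth transcription factor, had 217, 229 and 227 CPM in pre-HSC II, against 31.5, 48.0 and 45.8 CPM in pro-HSC/HPC (2.43 ± 0.46, adjusted p = 0.00037). Nop56, a nucleolar protein of ribosomal RNA processing whose exons touch those of Idh3b, averaged 723 ± 56.3 CPM in pre-HSC II and 349 ± 58.3 CPM in pro-HSC/HPC (1.05 ± 0.25, adjusted p = 0.0047). Polr1b, a subunit of RNA polymerase I, averaged 92.2 ± 24.5 CPM in pre-HSC II and 35.1 ± 7.98 CPM in pro-HSC/HPC (1.39 ± 0.35, adjusted p = 0.0069). Without overlap, 17 of the 26 members were higher, beside 14.5% of all genes. Myc was the 1 member called without the hemoglobin-rich libraries, with a median of 0.59. Cytosolic ribosomal proteins, by contrast, had a median of -0.03 over 30 members, of which 0 were called by edgeR, 1 by DESeq2, 1 by limma voom, and 1 had an unadjusted p under 0.05 in edgeR. Their median turned to 0.01 and 0.05 under other scalings.

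Of 26 genes of DNA replication and S phase 1 was called higher by edgeR, beside 2.93% of all genes. DESeq2 called 3 higher and limma voom 6. Their median was 0.26, and 9 were higher without overlap, beside 14.5% of all genes. The member called by edgeR was Mcm10, a replication initiation factor with 74.5, 70.6 and 81.7 CPM in pre-HSC II, against 40.0, 29.3 and 38.3 CPM in pro-HSC/HPC (1.08 ± 0.29, adjusted p = 0.012). It was not called without pro-HSC/HPC replicate 2 (adjusted p = 0.064). Of 20 mitosis genes 0 were called by edgeR or DESeq2 and 1 by limma voom, with 1 at an unadjusted p under 0.05 in edgeR and a median of 0.08. Cdk1, the mitotic kinase, averaged 273 ± 38.4 CPM in pre-HSC II and 364 ± 118 CPM in pro-HSC/HPC (-0.42 ± 0.26, adjusted p = 0.35). Of 13 D cyclins, CDKs and inhibitors, Cdkn1c was the 1 called by edgeR. DESeq2 called 1 higher and 1 lower, and limma voom 3 higher and 4 lower. Ccnd2 averaged 290.0 ± 30.4 CPM in pre-HSC II and 189 ± 21.7 CPM in pro-HSC/HPC without passing in edgeR (adjusted p = 0.12).

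In energy metabolism, single genes changed, in lists set beside 2.93% of all genes called higher and 9.42% lower. Of 21 glycolysis and hypoxia genes 1 was higher and 5 lower, with a median of -0.02 that turned to 0.02 and 0.06 under other scalings. Hk2, a hexokinase, had 287, 261 and 240.0 CPM in pre-HSC II, against 109, 98.2 and 69.4 CPM in pro-HSC/HPC (1.51 ± 0.26, adjusted p = 0.00013). Slc2a1, the glucose transporter GLUT1, had 39.8, 39.0 and 50.6 CPM in pre-HSC II, against 227, 264 and 302 CPM in pro-HSC/HPC (-2.62 ± 0.24, adjusted p = 8.4e-09). The transporter and the enzyme that first phosphorylates glucose thus differed in opposite directions. Vegfa, the vascular growth factor induced by low oxygen, averaged 2.44 ± 0.373 CPM in pre-HSC II and 17.5 ± 4.64 CPM in pro-HSC/HPC (-2.84 ± 0.52, adjusted p = 0.00027). Of 30 oxidative phosphorylation genes 2 were lower, Cox5a and Ndufa1. Cox5a, a subunit of cytochrome c oxidase, had 39.7, 49.2 and 66.8 CPM in pre-HSC II, against 220.0, 154 and 261 CPM in pro-HSC/HPC (-2.03 ± 0.39, adjusted p = 0.00045). Ndufa1, a subunit of complex I (adjusted p = 0.049), lost its call without any library other than pre-HSC II replicate 1 (adjusted p of 0.065 to 0.23).

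Of 33 interferon and inflammation genes 1 was higher and 1 lower in edgeR, beside 2.93% of all genes higher and 9.42% lower. Their median was 0.22. DESeq2 called 2 higher and 1 lower, and limma voom 9 higher and 2 lower. Ifitm1, a membrane protein that blocks virus entry and has near-identical relatives, had 319, 210.0 and 129 CPM in pre-HSC II, against 56.2, 47.5 and 57.8 CPM in pro-HSC/HPC (2.03 ± 0.42, adjusted p = 0.0012). Il6st, the signalling chain gp130, averaged 8.09 ± 2.78 CPM in pre-HSC II and 22.2 ± 5.25 CPM in pro-HSC/HPC (-1.46 ± 0.34, adjusted p = 0.0037). Of 12 antigen presentation genes tested 2 were higher in edgeR, 3 in DESeq2 and 7 in limma voom, with a median of 1.37 in edgeR. H2-K1, a class I antigen presenting molecule, averaged 35.4 ± 3.67 CPM in pre-HSC II and 12.7 ± 4.93 CPM in pro-HSC/HPC (1.47 ± 0.41, adjusted p = 0.014, and 0.089 without pro-HSC/HPC replicate 2). Tapbp, which loads it with peptide, averaged 19.6 ± 4.66 CPM in pre-HSC II and 9.19 ± 2.59 CPM in pro-HSC/HPC (1.09 ± 0.33, adjusted p = 0.029), and its call was lost without pre-HSC II replicate 1 or 3 or pro-HSC/HPC replicate 2 or 3 (adjusted p of 0.056 to 0.15). Of 15 immediate early genes, which respond within minutes to handling and to signals, Zfp36 was higher and Atf3 and Nr4a1 lower. Nr4a1 lost its call without any library other than pro-HSC/HPC replicate 3 (adjusted p of 0.071 to 0.16) and in limma voom (0.071). Zfp36, which destabilises inflammatory mRNAs, averaged 72.5 ± 10.7 CPM in pre-HSC II and 13.3 ± 2.80 CPM in pro-HSC/HPC (2.44 ± 0.54, adjusted p = 0.0022).

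The calls of the globin genes rested on the hemoglobin-rich libraries. The embryonic globin gene Hbb-y had 7.08, 4.07 and 8.09 CPM in pre-HSC II, against 5.51, 5150.0 and 1520.0 CPM in pro-HSC/HPC replicates 1, 2 and 3 (-8.44 ± 1.92, adjusted p = 0.0033). Hbb-bh1, an embryonic globin of the same cluster, had 1.95, 3.58 and 1.1 CPM in pre-HSC II, against 0.562, 3020.0 and 1210.0 CPM in pro-HSC/HPC (-9.31 ± 1.96, adjusted p = 0.0015). Hba-x, the embryonic alpha-like globin, had 0.651, 1.99 and 0.766 CPM in pre-HSC II, against 0.861, 3860.0 and 1290.0 CPM in pro-HSC/HPC (-10.55 ± 2.14, adjusted p = 0.00089). In each of the 3 genes pro-HSC/HPC replicate 1 lay near or below the pre-HSC II libraries, so the groups overlapped. Without replicates 2 and 3 the log2 differences were 0.22, 1.97 and 0.40 for Hbb-y, Hbb-bh1 and Hba-x, none of them called, and limma voom called none of them with all libraries (adjusted p of 0.24 to 0.49). The adult globin genes Hbb-b1, Hbb-b2, Hba-a1 and Hba-a2 had 0 counts in all 6 libraries.

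Other red cell genes were high in the same pro-HSC/HPC libraries as the globins. Slc4a1, the red cell anion exchanger, had 0 counts in pre-HSC II, against 0.0, 6.96 and 2.41 CPM in pro-HSC/HPC (adjusted p = 0.065, and 0.046 without pro-HSC/HPC replicate 1). Gata1, the red cell and megakaryocyte factor, had 3.37, 0.854 and 3.3 CPM in pre-HSC II, against 0.0, 9.29 and 5.46 CPM in pro-HSC/HPC (adjusted p = 0.75). Both were at 0 in pro-HSC/HPC replicate 1. Klf1, the erythroid factor, was at most 2.71 CPM in any of the 6 libraries. Of 17 erythroid markers tested 1 was called higher and 1 lower, beside 2.93% of all genes higher and 9.42% lower. Their median was -1.58 with all libraries and 0.55 without the hemoglobin-rich ones. Car2, a carbonic anhydrase also found in early progenitors, had 472, 483 and 366 CPM in pre-HSC II, against 27.0, 215 and 83.1 CPM in pro-HSC/HPC (2.02 ± 0.53, adjusted p = 0.0095). Its difference was 4.03 without the hemoglobin-rich libraries, and its call was lost without pro-HSC/HPC replicate 1 (adjusted p = 0.054) or 3 (0.058). Add2, a protein of the membrane skeleton, had 2 counts in pre-HSC II, against 6.59, 7.13 and 6.98 CPM in pro-HSC/HPC, 247-fold lower (95% counting interval 68.0 to 2040.0), and was level across the pro-HSC/HPC libraries. The summed erythroid level, largely Car2 in pre-HSC II and mostly other red cell genes in pro-HSC/HPC, was 571, 609 and 507 CPM in pre-HSC II, against 110.0, 531 and 281 CPM in pro-HSC/HPC.

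**Figure D4:**
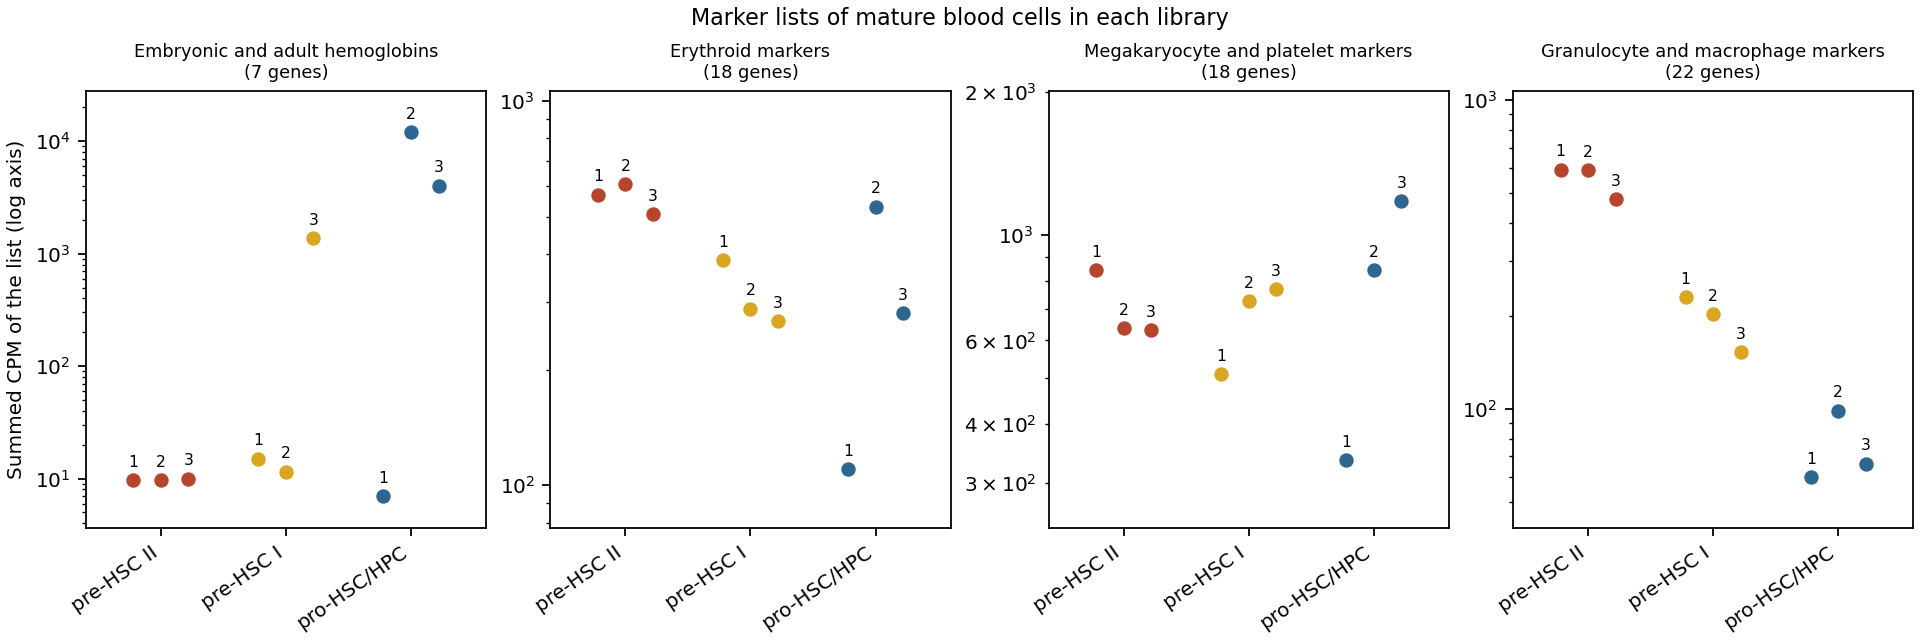
Summed CPM of 4 marker lists in each library (log axes, replicate numbers beside the points), for pre-HSC II, pre-HSC I and pro-HSC/HPC. Hemoglobin separates pro-HSC/HPC replicates 2 and 3 from replicate 1, with 12000.0 and 4020.0 against 6.93 CPM, while the granulocyte and macrophage sum is lower in all 3 pro-HSC/HPC libraries than in any pre-HSC II library.

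Some megakaryocyte and platelet genes showed a like split. Pf4, a platelet chemokine, had 119, 11.4 and 23.3 CPM in pre-HSC II, against 8.8, 215 and 538 CPM in pro-HSC/HPC (-2.31 ± 0.96, adjusted p = 0.13). It was called lower without pre-HSC II replicate 1 (adjusted p = 0.027) or pro-HSC/HPC replicate 1 (0.032). Without both hemoglobin-rich libraries its difference turned to 2.54. Tubb1, the platelet tubulin, had 0.421, 0.0 and 0.0 CPM in pre-HSC II, against 0.0, 21.8 and 12.5 CPM in pro-HSC/HPC (-6.26 ± 1.94, adjusted p = 0.042). The value of Tubb1 turned to 4.75 without pro-HSC/HPC replicates 2 and 3, where the library left had 0.0 CPM. The call was lost without either of these libraries or without pre-HSC II replicate 2 or 3 (adjusted p of 0.09 to 0.14). Of 17 members tested 2 were higher, Rgs18 among them, and 2 lower, Vwf and Tubb1, beside 2.93% of all genes higher and 9.42% lower. The median of this list was -0.95 with all libraries and 2.84 without the hemoglobin-rich ones. Rgs18, which restrains G protein signals in platelets, had 161, 121 and 75.2 CPM in pre-HSC II, against 2.47, 34.6 and 19 CPM in pro-HSC/HPC, and its difference was 2.67 ± 0.64 with all libraries (adjusted p = 0.0071) and 5.59 without the hemoglobin-rich ones (adjusted p = 0.00036). Vwf, the clotting factor of endothelium and platelets, had 30.4, 34.1 and 39.6 CPM in pre-HSC II, against 181, 134 and 181 CPM in pro-HSC/HPC (-2.25 ± 0.48, adjusted p = 0.0014), with no split by hemoglobin.

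Of the genes described above, others lost their call without both hemoglobin-rich libraries, where 1 pro-HSC/HPC library remained. Among blood genes these included Ramp1, Rgs1, Kit, Csf1r, Csf3r, Mef2c, Myb, Ikzf1 and Runx3. The log2 difference went from 1.33 to 1.31 for Kit and from 2.43 to 2.55 for Myb. It went from 3.75 to 4.34 for Ikzf1 and from 4.03 to 3.78 for Runx3. All 447 genes called higher with all libraries kept their direction in that fit. Among growth and metabolic genes they included Nop56, Polr1b, Mcm10, Ndufa1 and Hk2. Further ones were Igf2bp1, Hoxb5, Ifitm1, H2-K1, Tapbp, Atf3, Zfp36, Nr4a1 and Acta2. These names are not complete, and other members of the mesenchyme, integrin and stem cell lists lost their call as well.

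Among all called genes, 11 turned direction or fell to a difference of 0 without the hemoglobin-rich libraries. Beside the 3 globins and Tubb1 these were Cited4, Slfn14, Colgalt2, Adamtsl2, Prokr2, Pcdhb18 and 4930487H11Rik. Each of these 7 had 0 counts in all pre-HSC II libraries and in pro-HSC/HPC replicate 1, so they were read in the hemoglobin-rich libraries alone among the 6. Cited4 had 5.33 and 4.83 CPM in pro-HSC/HPC replicates 2 and 3. A further 10 genes were called without these libraries but not with them. The 6 higher ones were Cd52, Nifk, Plek, Saal1, Srfbp1 and Trpc6, and the 4 lower ones were Axin2, Klf3, Sp8 and Wasf3. Plek, the platelet and leukocyte protein pleckstrin, had 220.0, 175 and 166 CPM in pre-HSC II, against 16.4, 124 and 84.8 CPM in pro-HSC/HPC, and differed by 3.52 without replicates 2 and 3 (adjusted p = 0.002) and by 1.32 with them (adjusted p = 0.091). The genes of this paragraph were chosen after their values were seen.

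**Figure D5:**
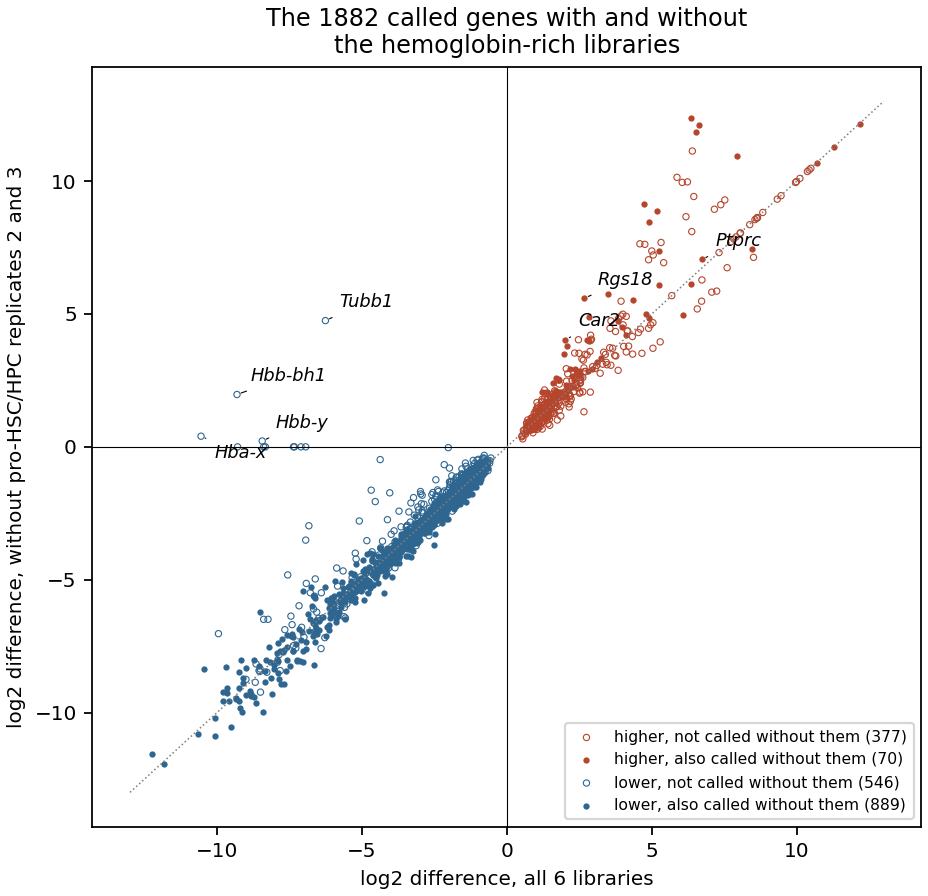
Log2 difference of each called gene with all 6 libraries (horizontal axis) and without pro-HSC/HPC replicates 2 and 3 (vertical axis), filled where also called without them. The globins and Tubb1 lie off the diagonal at or above a vertical value of 0, as do 7 genes at a vertical value of 0, some other genes lie off it as well, and 377 higher and 546 lower genes are open circles.

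Pre-HSC I, of the same day as pre-HSC II, was set beside the called genes. Its mean fell between the means of pre-HSC II and pro-HSC/HPC for 433 of the 447 higher genes and 1334 of the 1435 lower genes. The libraries of both end points had chosen these genes for being far apart, which by itself favours a mean in between. The share over all genes tested was not measured, so no conclusion is drawn from these counts. In the same fit pre-HSC I minus pro-HSC/HPC called 221 genes (1.45%), 35 higher (0.230%) and 186 lower (1.22%), and pre-HSC II minus pre-HSC I called 673 (4.42%), 21 higher (0.138%) and 652 lower (4.28%). These comparisons share libraries with each other and with the main one and are given side by side. Pre-HSC I replicate 3, with 0.172% of its counts in hemoglobin genes, was part of them. Ptprc, again a check of the labels, had 5.66, 13.3 and 15.2 CPM in pre-HSC I. It differed by 3.60 ± 0.76 between pre-HSC I and pro-HSC/HPC (adjusted p = 0.014) and by 3.13 ± 0.73 between pre-HSC II and pre-HSC I (adjusted p = 0.0084). Nid1 had 80.2, 111 and 146 CPM in pre-HSC I, with differences of -1.88 ± 0.25 (adjusted p = 0.00026) and -3.05 ± 0.27 (adjusted p = 3.3e-08) over the same steps. Gja4 had 463, 291 and 313 CPM in pre-HSC I, with -0.39 ± 0.35 (adjusted p = 0.75) and -4.68 ± 0.41 (adjusted p = 3.3e-08). Slc2a1 had 73.7, 59.6 and 78.4 CPM in pre-HSC I, with -1.90 ± 0.23 (adjusted p = 0.0002) and -0.71 ± 0.23 (adjusted p = 0.088). For the arterial connexin the step from pre-HSC I to pre-HSC II was the one called, and for the glucose transporter it was the step from pro-HSC/HPC to pre-HSC I. Whether these steps differ in size was not tested.

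Hemogenic endothelium of E10.5 was set against that of E9.5 to show what differed between the same days and tissue labels outside the blood populations, and it shares no library with the main comparison. There 555 genes were called (3.64%), 227 higher at E10.5 (1.49%) and 328 lower (2.15%). Of the 447 genes higher in pre-HSC II, 41 were also higher in E10.5 HE and 16 lower, and of the 1435 lower genes 63 were also lower and 46 higher. The difference between both changes was called for 1387 genes (9.10%), 351 of them higher (2.30%) and 1036 lower (6.80%). Of the genes called in the main comparison 118 higher and 876 lower ones were called in the same direction in this difference. By list, 23 of 25 endothelial, 19 of 20 arterial, 17 of 20 matrix and 14 of 22 imprinted genes were called lower in it, and 15 of 26 ribosome biogenesis genes and 9 of 40 leukocyte genes higher. The ribosome biogenesis list itself was lower in E10.5 HE than in E9.5 HE, with 4 members called lower, 0 higher and a median of -0.60, and the difference holds both changes.

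Single genes show the forms this took. Gja4 had 1610.0, 1450.0 and 1860.0 CPM in E10.5 HE, against 448, 531 and 317 CPM in E9.5 HE (1.92 ± 0.36, adjusted p = 0.003), the reverse of its fall in pre-HSC II. Lin28a had 6.73, 0.0983 and 6.8 CPM in E10.5 HE, against 44.2, 103 and 49.2 CPM in E9.5 HE (-3.84 ± 0.94, adjusted p = 0.02), so it was lower at the later day in endothelium as well. Slc2a1 had 119, 71.9 and 103 CPM in E10.5 HE, against 246, 282 and 339 CPM in E9.5 HE (-1.56 ± 0.23, adjusted p = 0.00051). For Lin28a the fall was larger between the blood populations (difference of -5.32 ± 1.61, adjusted p = 0.035), and likewise for Slc2a1 (-1.05 ± 0.32, adjusted p = 0.037). Myc had 61.7, 41.7 and 54.9 CPM in E10.5 HE, against 33.5, 62.5 and 61.2 CPM in E9.5 HE (0.01 ± 0.43, adjusted p = 1.0), and the difference of its rise in pre-HSC II was 2.42 ± 0.62 (adjusted p = 0.011).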

How the data were processed

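Per the labels' protocols, each of the 28 libraries was built from 100 sorted cells with SMARTer Ultra Low Input chemistry. The authors deposited unnormalized counts, 1 row per gene symbol, on mm9 coordinates. TopHat, SAMtools, Subread and featureCounts 1.6.2 are named in the submitters' processing notes. The sources used here give no strand setting, no rule for reads with several matches and no annotation release, so values of near-identical copies (Ifitm1, H2-K1, hemoglobins, ribosomal proteins, Bex6) and of overlapping genes are uncertain. Of the 179 named genes, 11 share exon bases with another gene. These are Bmp4, Ebi3, Igf2bp1, Mest, Nop56, Nos3, Nrp1, Peg3, Rpl30, Stab1 and Tagln.

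Of 24015 genes, 15238 passed filterByExpr (minimum count 10) in edgeR 4.0.16 under R 4.3.3. A quasi-likelihood model with TMM scaling and a separate mean for each population used all 28 libraries (biological coefficient of variation 0.563). Benjamini-Hochberg adjusted p-values cover all genes tested, and a gene was called at an adjusted p under 0.05. Replicates of a population correlated at 0.967 to 0.976 across genes on log2 CPM, and every pair differed by more than counting noise (lowest chi-square over its degrees of freedom 50.3). The series' design text says that biological replicates are included, but the labels do not tie libraries to litters or embryos, so p-values reflect only how far these samples scatter, and that scatter may be technical. Intervals and floors cover counting error only. In simulated data for this comparison with 14836 genes, recovery was 26.9% at 2-fold, 92.5% at 4-fold and 100% at 8-fold, and 6 of 152 calls were false. Only genes averaging 10 CPM or more were changed there, in random directions. Counts were drawn with the spread typical of each expression level, without gene-specific spread and without hemoglobin-rich libraries. These rates therefore do not measure recovery in the real data.

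The populations compared, the gene lists and the tests were chosen with earlier results of these data known. Named genes were the 12 largest rises and 12 largest falls among called genes that averaged 10 CPM or more in the higher population without overlap between libraries, a panel of 32 genes, up to 4 members of each list with the smallest p, and the 6 smallest p of the difference from the change in HE. Unnamed gene models, small RNAs and pseudogenes were left out. Some of these genes are not reported here. Alternatives were DESeq2 1.42.0, limma 3.58.1 with voom and quality weights, other scalings, other filters, only the libraries compared, a replicate block, a fold minimum of 1.5, hemoglobin genes removed, the hemoglobin-rich libraries left out and each library left out in turn.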

Additional observations from a re-analysis of the deposited data

Results flagged for a closer look

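Pre-HSC II minus pro-HSC/HPC was tested against E10.5 HE minus E9.5 HE with an interaction contrast in edgeR, and 1387 genes differed between both changes. The 6 genes with the smallest p all fell in pre-HSC II relative to pro-HSC/HPC, and none was called lower in HE.

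Myzap had 180.0, 219 and 199 CPM in E10.5 HE, against 162, 128 and 106 CPM in E9.5 HE, and its difference of differences was -4.47 ± 0.34 (adjusted p = 5.6e-09). Gja4, called higher in E10.5 HE, gave -6.99 ± 0.55 (adjusted p = 5.7e-09). Ramp2, a partner of the adrenomedullin receptor, had 496, 414 and 541 CPM in E10.5 HE, against 283, 362 and 375 CPM in E9.5 HE, and gave -4.43 ± 0.35 (adjusted p = 5.7e-09). Cald1 had 276, 363 and 324 CPM in E10.5 HE, against 330.0, 339 and 355 CPM in E9.5 HE, and gave -4.17 ± 0.33 (adjusted p = 5.7e-09).

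Ehd2, a protein of membrane caveolae, had 57.5, 128 and 96.7 CPM in E10.5 HE, against 45.6, 53.6 and 52.3 CPM in E9.5 HE, and gave -5.78 ± 0.48 (adjusted p = 9.9e-09). Id3 had 1780.0, 1140.0 and 1340.0 CPM in E10.5 HE, against 683, 1090.0 and 848 CPM in E9.5 HE, and gave -5.86 ± 0.49 (adjusted p = 9.9e-09). The change in HE was called for Gja4 and not for the other 5 genes (adjusted p of 0.11 to 0.89).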

How the results depend on the processing

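The count of called genes was 1328 to 1700 when each library was left out, with 250 to 372 higher and 1078 to 1328 lower, and 1108 to 1334 genes differed from the change in HE. Limma voom called 3902 genes, 1665 higher and 2237 lower, and 2376 for the difference from HE. DESeq2 called 681 higher, a fit of only the compared libraries 818 higher, and a fold minimum of 1.5 left 222 higher. Without the hemoglobin-rich libraries 969 genes were called, 76 higher and 893 lower, and 864 differed from the change in HE. With those libraries out and only the compared ones fitted, an alternative chosen after seeing the data, 501 were higher and 955 lower. The share of calls that were higher was 23.8% in the main fit, 42.7% with voom, 35% in the fit of only the compared libraries, 7.8% without the hemoglobin-rich libraries and 34.4% in the added alternative.

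Without the hemoglobin-rich libraries, and in the added alternative, the log2 difference turned to 1.97 and 1.95 for Hbb-bh1, 0.22 and 0.20 for Hbb-y, 0.40 and 0.38 for Hba-x, and 4.75 and 4.85 for Tubb1. Gata1 likewise turned from -0.97 with all libraries to 8.84 without the hemoglobin-rich libraries and 8.94 in the added alternative. Gata1 and Tubb1 had 0.0 CPM in pro-HSC/HPC replicate 1, the library left there, so the size of their differences is not measured. Why the pro-HSC/HPC libraries differ in these genes was not tested. DESeq2 did not call Rgs1, Myo1g, Myb, Ikzf1 or Tubb1 (adjusted p of 0.08 to 0.4). Same-numbered libraries of both populations correlated at -0.161, 0.139 and 0.234 in their deviations from the group means, not every library correlated best with its own number, so the numbers are not taken to pair them, and a replicate block gave 2019 calls, 520 higher and 1499 lower. Of the 126 named genes that were called, 88 were called under every alternative. Depth limits genes near the floor of 3 counts.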

Other observations

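Among markers of other embryonic tissues, the neural and mesonephros sums were lower in pre-HSC II, and the cardiac and germ cell sums were higher. The summed cardiac markers were 362, 380 and 456 CPM in pre-HSC II, against 211, 231 and 224 CPM in pro-HSC/HPC. Of these markers Mef2c was called higher and 4 others lower. The summed neural and neural crest markers were 11.6, 9.64 and 20.4 CPM in pre-HSC II, against 76.3, 33.8 and 101 CPM in pro-HSC/HPC, where Nes was the member called lower of 6 tested. The summed mesonephros and intermediate mesoderm markers were 17.0, 11.6 and 13.8 CPM in pre-HSC II, against 126, 83.3 and 133 CPM in pro-HSC/HPC. Gata3 and Ret were called lower of 5 tested, beside 9.42% of all genes. Endoderm and epithelium markers overlapped between the populations, at 63.8, 34.3 and 30.1 CPM in pre-HSC II and 44.6, 40.6 and 27.7 CPM in pro-HSC/HPC. Of 7 endoderm members tested 0 were called by edgeR, DESeq2 or limma voom, and 2 were lower at an unadjusted p under 0.05 in edgeR. Of 3 mast cell markers tested 0 were called by edgeR or DESeq2 and 1 by limma voom, with 1 at an unadjusted p under 0.05 in edgeR.

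Lymphoid markers split, with Il7r higher and Ebf1 and Tcf7 lower of 7 tested, beside 2.93% of all genes higher and 9.42% lower. Il7r, the interleukin-7 receptor of lymphoid progenitors, lost its call without pre-HSC II replicate 2 (adjusted p = 0.082) or pro-HSC/HPC replicate 1 (0.07) or 3 (0.068). Of 6 germ cell markers tested Kit was higher and Prdm1 lower, and Prdm1 was not called without pre-HSC II replicate 1 (adjusted p = 0.053). The summed germ cell markers were 235, 324 and 388 CPM in pre-HSC II, against 133, 132 and 132 CPM in pro-HSC/HPC. Most of the sum in each library came from Kit.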
